A study of Mus musculus with 37 samples.

Results

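The 5 genes described here move glycerol across the cell membrane or convert it once inside the cell. Aqp3, Aqp7 and Aqp9 encode aquaglyceroporins, and Gpd1 and Gpd2 encode the cytosolic and the mitochondrial glycerol-3-phosphate dehydrogenase. They were chosen by name, with earlier results of these data known, and are 5 of the 21450 genes on the mouse TempO-Seq array. They were read by 6 of its 30146 probes, with 2 probes for Aqp3 and 1 for each of the others.

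Glycerol set free by lipolysis in adipose tissue travels in blood and enters hepatocytes mainly through AQP9, the aquaglyceroporin typical of liver. AQP7 is best known as the glycerol exit channel of adipocytes, and AQP3 is best known in epithelia such as skin and kidney collecting duct. Inside the hepatocyte, glycerol kinase makes glycerol 3-phosphate, which either serves as the backbone of triglycerides and phospholipids or is oxidized to dihydroxyacetone phosphate. GPD1 runs that last reaction in both directions with NAD as its partner. GPD2 runs it on the outer face of the inner mitochondrial membrane and passes the electrons to the respiratory chain, and the pair form the glycerol phosphate shuttle.

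Livers came from wild-type CD1 mice given HFPO-DA, a short-chain perfluoroalkyl ether acid, by oral gavage with deionized water as the vehicle. Daily doses per kg of body weight were 0.1 mg, 0.5 mg and 5 mg, and controls (0 mg/kg) got the vehicle alone. The livers had been fixed in formalin and embedded in paraffin, and TempO-Seq, an assay in which pairs of probes are joined on RNA and sequenced, was run on sections of them. Males started at about 6 weeks of age and received 84 to 85 doses, covering 70 days before mating and 14 days of mating. Females started at about 11 weeks of age and received 53 to 65 doses, from 14 days before mating to lactation day 20 or 21. From the lowest to the highest dose there were 5, 5, 5 and 4 males, and 5, 5, 4 and 4 females, each mouse giving 1 library. Sex cannot be told apart from age, length of dosing and reproductive state in these animals, since females were dosed through to lactation. In whole liver, fewer cells of a type and less RNA per cell cannot be told apart either.

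Total counts per library ranged from 2101495 to 10548222 in males and from 7952605 to 13878254 in females. The 2 shallowest libraries, both under 3000000 counts, were replicate 3 of the males at 5 mg/kg (2101495 counts) and replicate 2 of the males at 0.5 mg/kg (2608954 counts). Values are given as raw counts and as CPM (counts-per-million) on TMM-normalized library sizes. The probes of different genes bind with different efficiency, so levels are compared between mice for 1 probe and not between genes. Hepatocyte markers were abundant in every group. Their sum over 8 genes ran from 19570 to 25440 CPM in control males and from 14450 to 17060 CPM in males at 5 mg/kg, and from 24170 to 31200 CPM in control females and from 18470 to 23550 CPM in females at 5 mg/kg. A probe was called when edgeR's quasi-likelihood test gave a Benjamini-Hochberg adjusted p under 0.10. All 6 probes passed the filter on low counts, but those of Aqp3 and Aqp7 passed largely through the mice at 5 mg/kg. Of the 11 mice in which Aqp3 probe 30918 reached the level the filter asks for, 8 were at 5 mg/kg, as were 8 of 9 for probe 76050 and 4 of 7 for Aqp7. A count over the probes that passed is therefore given as a description.

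At 5 mg/kg in males, 3 of the 5 genes were called against control and all 3 were higher (Aqp3, Aqp7 and Gpd1). Among all 18570 probes tested in that comparison, 12.7% were called in either direction, 782 higher and 1577 lower. In females at 5 mg/kg, 2 of the 5 genes were called and both were higher (Aqp3 and Gpd1), where 4.52% of all probes were called. At 0.5 mg/kg, Aqp3 was called in males by 1 of its 2 probes, where 0.625% of all probes were called. No member was called in females at 0.5 mg/kg, where 0.113% of all probes were called. None of the 5 genes was called at 0.1 mg/kg in either sex, and edgeR called 0% of all probes there. At an unadjusted p under 0.05, 1 of the 5 genes in males and 2 in females would have counted at 0.1 mg/kg, with 1325 and 442 probes in all. DESeq2 called 19 and 3 probes at this dose and none of the 5 genes.

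**Figure D1:**
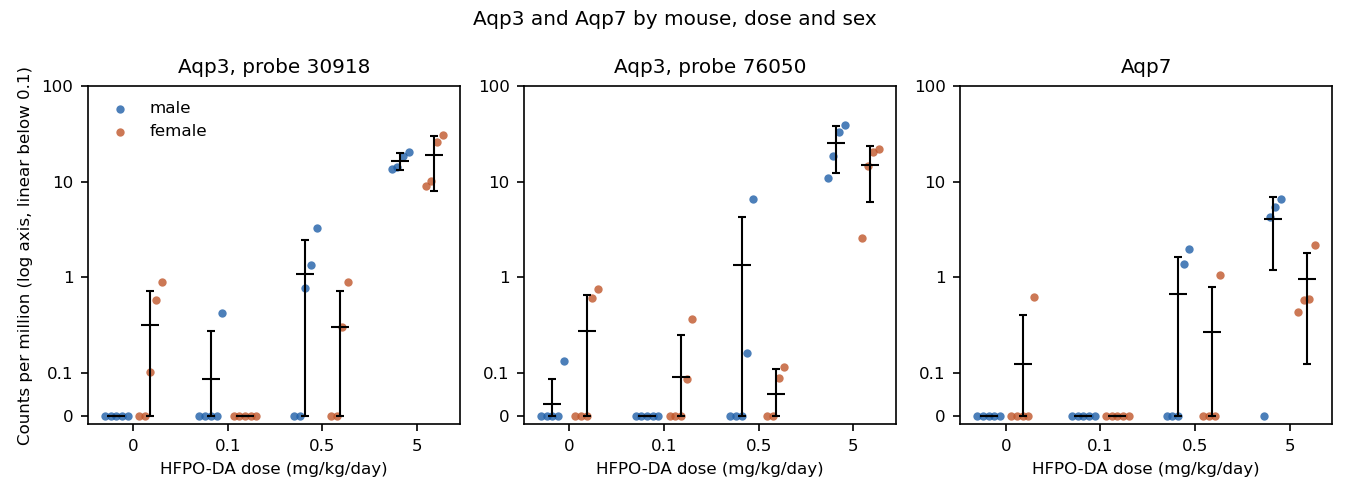
Levels of both Aqp3 probes and of Aqp7 in each mouse (points), as CPM on a log axis that is linear below 0.1, against dose of HFPO-DA in mg/kg bw/day, males in blue and females in orange. Black bars are the mean and SD of each group. All 8 mice at 5 mg/kg lie above all control mice for both Aqp3 probes, and 1 of 4 males at 5 mg/kg has no Aqp7 count.

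Aqp3 lies at chr4:41092722-41098183 on the minus strand of GRCm38 (GENCODE M21). AQP3 carries water and glycerol, and in these livers its transcript went from at or near 0 in control mice to an ample count in every mouse at 5 mg/kg. The RefSeq sequence just before its start is shown because Aqp3 was the member whose groups lay farthest apart. It covers 250 bases, chr4:41098184-41098433 of GRCm38.p6, minus strand, written 5′ to 3′, and capitals mark a TATAAA motif.

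Aqp3: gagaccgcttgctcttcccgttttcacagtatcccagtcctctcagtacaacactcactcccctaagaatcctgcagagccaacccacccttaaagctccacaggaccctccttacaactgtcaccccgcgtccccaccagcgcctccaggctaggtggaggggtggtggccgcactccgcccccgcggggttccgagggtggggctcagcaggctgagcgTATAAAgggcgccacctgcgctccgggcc

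Of 32851 RefSeq promoter windows of 300 bases, 8.32% hold TATAAA as transcribed. The nuclear receptor half-site AGGTCA was searched on both strands and is in 16.3% of windows, and a direct repeat of this half-site with 1 base between the copies and the fourth base of each left free, which overlaps it, is in 0.381%. Neither was found in the Aqp3 window.

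Probe 30918 of Aqp3 had no count in any of the 5 control males. In males at 5 mg/kg it had 78, 128, 36 and 132 counts, or 18.4, 14.1, 13.5 and 20.4 CPM, with a mean of 16.6 ± 3.33 CPM (SD, n = 4). Every male at 5 mg/kg was above every control male and above every male at 0.5 mg/kg. Against the limit that a group total of 0 allows (3 counts over the 5 control libraries, 0.0788 CPM), the pooled level was at least 211-fold higher in males at 5 mg/kg (edgeR adjusted p = 3.67e-05). Bounds and intervals of this kind cover counting error only.

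Probe 76050 read the same gene in the same mice. It had 1 count in 1 control male and none in the other 4, and 165, 98, 89 and 119 counts in the males at 5 mg/kg, or 38.9, 10.8, 33.4 and 18.4 CPM (mean 25.4 ± 13.01, SD, n = 4). The groups did not overlap, and the adjusted p was 5.47e-05. With a single control count the ratio of the pooled levels is poorly bounded, at 799-fold with a 95% counting interval of 143 to 31600.

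In females, control mice were not all at 0. Probe 30918 had 0, 1, 0, 9 and 7 counts in the 5 controls, with a mean of 0.314 ± 0.400 CPM (SD, n = 5). At 5 mg/kg it had 88, 99, 294 and 363 counts, or 10.3, 9.03, 25.8 and 30.9 CPM (mean 18.997 ± 11.003, SD, n = 4). All 4 mice lay above all 5 controls, a log2 fold change of 5.84 ± 1.17 (SE) with an edgeR adjusted p of 0.00133. Probe 76050 gave 0, 6, 8, 0 and 0 counts in controls (0.273 ± 0.376 CPM, SD, n = 5). It gave 22, 160, 250 and 240 counts at 5 mg/kg, or 2.57, 14.6, 21.9 and 20.4 CPM (mean 14.9 ± 8.80, SD, n = 4), again without overlap. Its log2 fold change was 5.71 ± 1.23 (SE), with an edgeR adjusted p of 0.00261.

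Group means of Aqp3 at 0.5 mg/kg lay between those at 0 and 5 mg/kg in males, and at or below the control means in females. Probe 30918 had 0, 0, 11, 32 and 5 counts in the 5 males at 0.5 mg/kg, so 3 of 5 mice exceeded all controls. It was called against control (edgeR adjusted p = 0.0764), and the pooled level was at least 18.3-fold higher. Probe 76050 had 1, 0, 0, 64 and 0 counts in the same mice and was not called (adjusted p = 0.138). Replicate 4 carried 64 of its 65 counts and 32 of the 48 counts of probe 30918. Without that mouse neither probe was called, with an adjusted p of 0.236 for probe 30918 and a log2 fold change of 0.50 for probe 76050. The call of probe 30918 was also lost without replicate 3 at 0.5 mg/kg, without any 1 control male, and without female replicate 3 or 4 at 5 mg/kg, with adjusted p from 0.100 to 0.162, and with each sex fitted apart (0.187). In females at 0.5 mg/kg, probe 30918 had 0, 3, 11 and 0 counts and probe 76050 had 1, 0, 0 and 1. For probe 30918 replicate 3, at 0.905 CPM, lay just above the highest control (0.885 CPM) and the other 3 within the range of the controls, as did all 4 for probe 76050. Neither probe was called by edgeR.

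The step from 0.5 to 5 mg/kg was itself called for both probes in both sexes. In males the log2 fold change was 3.83 ± 1.06 (SE, edgeR adjusted p = 0.0297, or 0.121 with each sex fitted apart) for probe 30918 and 4.11 ± 1.12 (SE, adjusted p = 0.0242) for probe 76050. In females it was 5.87 ± 1.29 (SE, adjusted p = 0.0113) and 7.90 ± 1.57 (SE, adjusted p = 0.00299). Aqp3 was the only 1 of the 5 genes called in this step by edgeR in either sex, where 8.73% of all probes were called for males and 1.48% for females.

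At 0.1 mg/kg, probe 30918 had 4 counts in 1 of 5 males and none in any of 5 females. Probe 76050 had none in males and 1 and 4 counts in 2 of 5 females. Aqp3 was thus at or near 0 in every mouse of this dose, at depths of 4012015 to 13878254 counts.

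**Figure D2:**
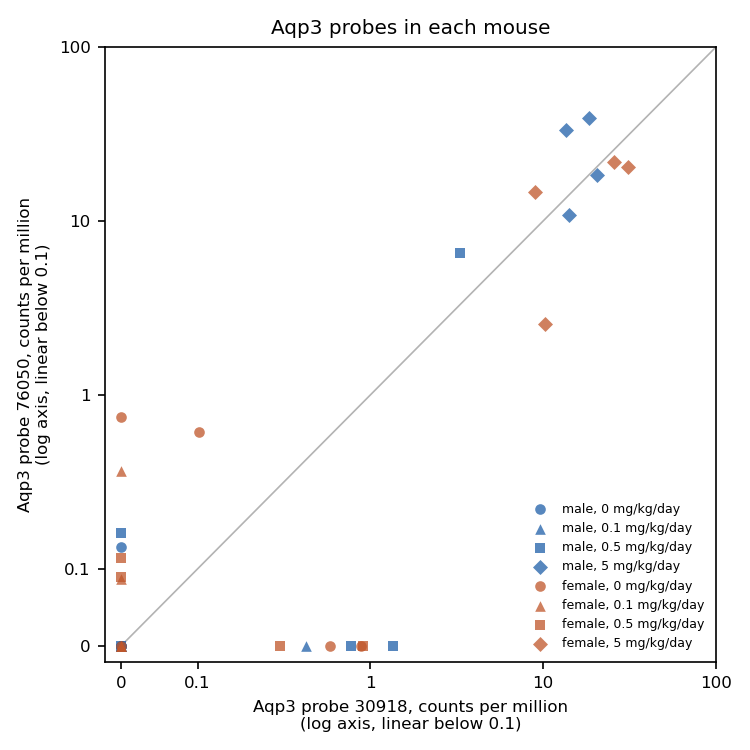
CPM of Aqp3 probe 76050 against probe 30918 in each of the 37 mice, on log axes that are linear below 0.1, with the line of equal values in gray. Colour marks sex and shape marks dose. The 8 mice at 5 mg/kg lie at the upper right. For probe 30918, 1 male at 0.5 mg/kg lies between them and the rest, but for probe 76050 it lies above 1 female at 5 mg/kg.

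The 2 Aqp3 probes both set the mice at 5 mg/kg above the controls of their sex, but ordered the mice of that dose differently. Among males at 5 mg/kg, replicate 4 was highest by probe 30918 (20.4 CPM) and replicate 1 by probe 76050 (38.9 CPM). Over the 37 mice their log2 CPM, centred within each sex, had a Pearson r of 0.90, a description in which both probes share each library and its depth. Among the 12995 probes of other genes compared, one per gene, those most like Aqp3 probe 30918 were Hsd17b11 (r = 0.91), Ddhd2 (r = 0.90) and Fabp3 (r = 0.90). Leaving out the mouse farthest from the centre gave 0.91, 0.91 and 0.89. Hsd17b11 encodes a lipid droplet dehydrogenase, Ddhd2 a lipase and Fabp3 a fatty acid binding protein. These r values rest largely on the contrast of 5 mg/kg with the other doses.

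Aqp7 lies at chr4:41033074-41048139, also on the minus strand, and is the next protein-coding gene to Aqp3 in that annotation, 44582 bases away. AQP7 lets glycerol out of adipocytes. RefSeq bases lying before the outermost start listed for Aqp7 are shown for comparison with its neighbour. They cover 149 bases, chr4:41048238-41048386 of GRCm38.p6, minus strand, written 5′ to 3′, with none of the motifs above and so no capitals.

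Aqp7: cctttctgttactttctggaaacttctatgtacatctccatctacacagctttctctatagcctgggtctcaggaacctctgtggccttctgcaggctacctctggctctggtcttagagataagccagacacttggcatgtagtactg

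The 2 overlapping 300-base windows that RefSeq gives for Aqp7 hold 1 and 2 copies of AGGTCA, downstream of the stretch shown, and neither holds the direct repeat or TATAAA. The windows for Aqp9 and Gpd2 hold none of the 3 motifs. Gpd1 was not searched.

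Aqp7 had few counts, and its values are given as such. All 10 males at 0 and 0.1 mg/kg had no count. At 0.5 mg/kg it had 16 and 9 counts in 2 of 5 males and none in the other 3. At 5 mg/kg it had 28, 39, 0 and 35 counts, or 6.60, 4.30, 0 and 5.41 CPM (mean 4.08 ± 2.88, SD, n = 4). The male at 5 mg/kg without a count was replicate 3, the shallowest library, which had 36 and 89 counts for the Aqp3 probes. Whether depth accounts for the missing count was not tested.

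In males at 5 mg/kg Aqp7 was called higher than in controls (edgeR adjusted p = 0.0292). The pooled level was at least 57.7-fold higher, with 3 of 4 mice above all controls. The difference at 0.5 mg/kg was not called (adjusted p = 0.343). In females Aqp7 had 6 counts in 1 of 5 controls, none at 0.1 mg/kg, 13 counts in 1 of 4 mice at 0.5 mg/kg, and 5, 24, 5 and 7 counts at 5 mg/kg. All 4 females at 5 mg/kg had a count against 1 of 5 controls, but the ranges overlapped and the difference was not called. Its log2 fold change was 2.81 ± 1.91 (SE), with an edgeR adjusted p of 0.723 and a 95% interval of -1.10 to 6.71. At this depth a rise in females of the size of the Aqp3 rise lies within that interval.

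The genes most like Aqp7 across the mice were Wfdc3 (r = 0.80), Depdc1a (r = 0.76) and Cib3 (r = 0.75), over 37 mice most of which had no Aqp7 count. Aqp7 and Aqp3 probe 30918 had an r of 0.72. Beside the pair, 6 protein-coding genes lie within 100 kb (Nfx1, Chmp5, Bag1, Nol6, Ube2r2 and Ubap2, chosen after the values were seen), and at 5 mg/kg none of the 6 was called in either sex. Of all probes, 12.7% were called in males and 4.52% in females, so none of 6 lies near these shares. Whether the difference is confined to the pair was not tested. Nol6, the next gene beyond Aqp3, had a log2 fold change of 0.44 in both sexes (-0.05 in males without replicate 4 at 5 mg/kg), with adjusted p of 0.593 for males and 0.904 for females. Nfx1, beyond Aqp7, had -0.43 for males, with an adjusted p of 0.644, and -0.55 for females, with 0.817.

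Which cells carried the Aqp7 counts was not tested. AQP7 is best known in adipocytes, and a list of 9 adipocyte genes was read in the same libraries, with 1 probe per gene. Its summed level was higher at 5 mg/kg, 140.8 to 336 CPM in males against 15.7 to 37.4 CPM in control males, and 25.4 to 271 CPM in females against 16.9 to 30.4 CPM in control females. Fabp4, which macrophages and capillary endothelium also express, carried nearly all of this sum, with 217 ± 87.0 CPM (SD) over the 4 males of this dose. The probes read for the defining genes Adipoq, Plin1, Cfd, Retn and Lep, and the list's Lipe probe, had no count in any male at 5 mg/kg. Of these, only the Lep probe had no count in the 5 control males, whose libraries held more counts in sum (41333429 against 21435557). In females at 5 mg/kg, the probes of Cfd, Retn and Lep had no count, that of Adipoq had 1 and that of Plin1 had 3, each in 1 of 4 mice. Other probes of Adipoq and Plin1 were not read. Of the 9 genes, 4 were tested (Fabp4, Cidec, Lipe and Pparg). At 5 mg/kg edgeR called 1 higher and 1 lower in males (12.7% of all probes called), and 1 higher in females (4.52%). The summed levels of the endothelial list, 231 to 330.6 CPM in males at 5 mg/kg against 284 to 399.6 CPM in controls, overlapped, as did those of the macrophage list, 79.9 to 252 CPM against 64.6 to 281 CPM. In females at 5 mg/kg the macrophage sum was 145 to 342 CPM against 147 to 291 CPM in controls, and the endothelial sum was 245 to 313 CPM against 310.5 to 337 CPM. Cholangiocyte genes summed to 5.10 to 33.8 CPM in males at 5 mg/kg against 2.79 to 63.4 CPM in controls, and to 10.5 to 22.9 CPM against 7.75 to 65.6 CPM in females. Red cell genes were higher in males than in females at every dose compared here, 42.4 to 84.4 CPM in males at 5 mg/kg against 53.0 to 112 CPM in control males, and 6.89 to 19.1 CPM against 0.885 to 11.8 CPM in females.

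**Figure D3:**
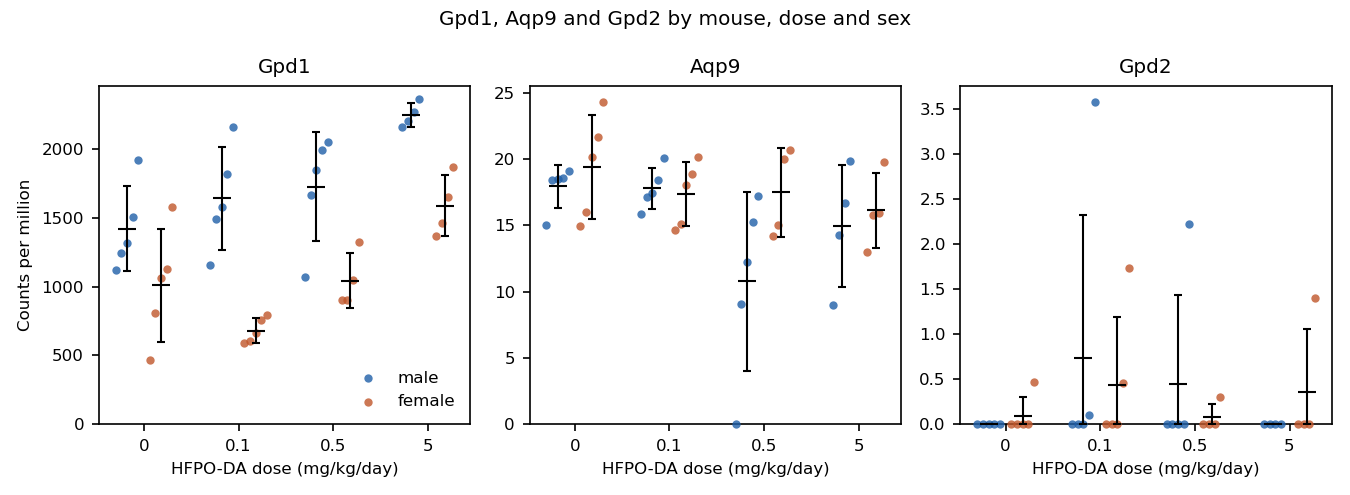
Levels of Gpd1, Aqp9 and Gpd2 in each mouse (points), as CPM on linear axes from 0, against dose in mg/kg bw/day, males in blue and females in orange, with the mean and SD of each group in black. Gpd1 is highest at 5 mg/kg in both sexes, and Gpd2 has a count in 8 of the 37 mice. Aqp9 was not called in any comparison, its means at 5 mg/kg lie below the control means in both sexes, and 1 male is at 0.

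Aqp9, at chr9:71110659-71168682 on the minus strand, is the channel through which hepatocytes take up glycerol from portal blood. Unlike Aqp3 and Aqp7 it was read in nearly every mouse and was not called in any comparison. Control males had 18.5, 19.1, 18.5, 18.6 and 15.1 CPM (17.9 ± 1.63, SD, n = 5). Males at 5 mg/kg had 8.96, 19.9, 14.3 and 16.7 CPM (14.9 ± 4.60, SD, n = 4), which overlapped the controls. The log2 fold change was -0.26 ± 0.39 (SE, edgeR adjusted p = 0.780), with a 95% interval of -1.06 to 0.55. The female means were 19.4 ± 3.91 CPM over 5 controls and 16.1 ± 2.81 CPM (SD) over the 4 mice of the highest dose. That difference was -0.27 ± 0.39 on the log2 scale (SE, adjusted p = 1), with an interval of -1.06 to 0.52.

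The lowest group mean of Aqp9, 10.8 ± 6.77 CPM (SD, n = 5), was that of males at 0.5 mg/kg. In that group replicate 2, of 2608954 counts, had no Aqp9 count while the other 4 mice had 76, 124, 168 and 59. Those 4 were at 12.2, 15.3, 17.2 and 9.06 CPM. Against control males the group had a log2 fold change of -0.70 ± 0.37 (SE) and was not called (edgeR adjusted p = 0.5345). The library of replicate 2 set which genes looked most like Aqp9. Suz12 (r = 0.95), Srrm1 (r = 0.93) and Zfp266 (r = 0.93) led over all 37 mice, and without it their r fell to 0.28, 0.23 and 0.32.

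Gpd1, at chr15:99717515-99725005 on the plus strand, was the most abundantly counted of the 6 probes, with 4410 to 21267 counts in every mouse. Its enzyme links glycerol 3-phosphate to glycolysis and gluconeogenesis. Control males had 1504, 1314, 1123, 1917 and 1242 CPM. Males at 5 mg/kg had 2269, 2156, 2202 and 2363 CPM. All 4 lay above all 5 controls and above all 5 males at 0.5 mg/kg. The means were 1419.96 ± 311 (SD, n = 5) and 2247 ± 89.8 (SD, n = 4), a log2 fold change of 0.66 ± 0.22 (SE, edgeR adjusted p = 0.0464), or 1.58-fold. This call was lost without control replicate 2 or 3 or without replicate 1 or 4 at 5 mg/kg, with adjusted p from 0.102 to 0.131, and also without the 2 shallow libraries (adjusted p = 0.103).

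The males between these doses had intermediate means of 1640.4 ± 376 CPM at 0.1 mg/kg and 1726 ± 397 CPM at 0.5 mg/kg (SD, n = 5 each). Neither differed from control beyond the spread between mice, with log2 fold changes of 0.21 ± 0.20 and 0.28 ± 0.20 (SE) and edgeR adjusted p of 1 and 0.765. The step from 0.5 to 5 mg/kg was 0.38 ± 0.22 (SE) and was not called (adjusted p = 0.310), although the groups did not overlap.

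Female means of Gpd1 lay below male means at each dose. Controls had 1062, 809.5, 1578, 1124 and 467 CPM (1008 ± 410, SD, n = 5), and mice at 5 mg/kg had 1465, 1364, 1867 and 1649.95 CPM (1587 ± 221, SD, n = 4). The log2 fold change of 0.65 ± 0.22 (SE) was close in size to that of males and was called with an edgeR adjusted p of 0.0933. The groups overlapped through control replicate 3. Leaving out any 1 of 8 of the 9 mice compared ended the call, all but control replicate 3, as did leaving out any of 22 of the 28 mice of the other groups, whose spread enters the fit. The adjusted p ranged from 0.0141 to 0.312 over the 37 mice, and the log2 fold change from 0.47 to 0.86.

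At 0.1 mg/kg females had 754, 662, 588, 604 and 792 CPM of Gpd1, a mean of 679.7 ± 90.4 (SD, n = 5). In all, 4 of the 5 controls lay above all of them and the lowest control, 467 CPM, lay below. The log2 fold change was -0.57 ± 0.20 (SE), with an unadjusted p of 0.00805 in edgeR's model and an adjusted p of 1. At 0.5 mg/kg the mean was 1043 ± 198 CPM (SD, n = 4), with a log2 fold change of 0.05 ± 0.22 (SE) against control. The 4 females at 5 mg/kg all lay above the 4 at 0.5 mg/kg, a log2 step of 0.60 ± 0.23 (SE) that was not called by edgeR (adjusted p = 0.366). The genes most like Gpd1 over the 37 mice were Cyb5b, Tsfm and Phb (r = 0.84, 0.82 and 0.82), all 3 of which encode mitochondrial proteins.

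Gpd2, at chr2:57237635-57370719 on the plus strand, was near the lower limit of the assay. No control male and no male at 5 mg/kg had a count. In the 37 mice together it had a count in 8, from 1 to 20, and in any group at most 2 mice had a count. It was not called in any comparison, and no fold change is given for it because most groups were at or under the limit of 3 counts or owed their count to a single mouse.

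The sexes were compared at 0 mg/kg and in their response to 5 mg/kg. None of the 5 genes was called between control males and control females, where 2.60% of all probes were called. At an unadjusted p under 0.05, 2 of the 5 would have counted, Aqp3 and Gpd1, and DESeq2 called 1 (Gpd1, adjusted p = 0.0871). Gpd1 was higher in control males by 0.49 ± 0.20 on the log2 scale (SE, edgeR adjusted p = 0.301). The difference between the sexes in the response to 5 mg/kg was called for none of the 5 genes by edgeR or DESeq2, where edgeR called 0.630% of all probes. At an unadjusted p under 0.05, 2 genes would have counted, Aqp3 (adjusted p = 0.407 and 0.517 for its probes) and Aqp7 (adjusted p = 0.460). For Gpd1 the difference was 0.01 on the log2 scale with a 95% interval of -0.62 to 0.63, and for Aqp9 it was 0.01 with an interval of -1.11 to 1.13.

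**Figure D4:**
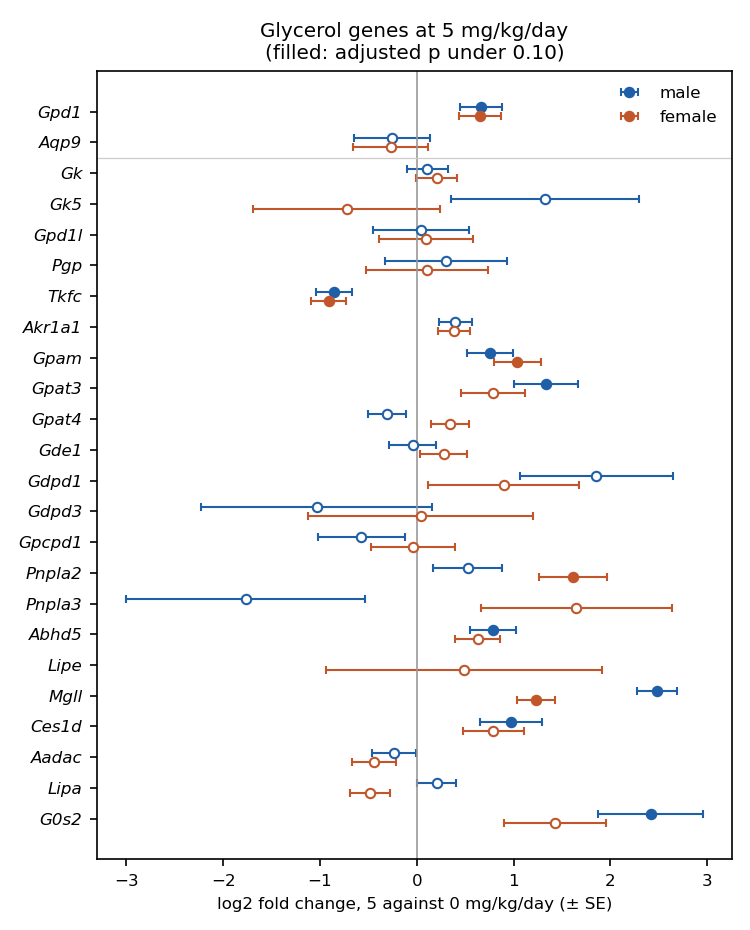
Log2 fold changes at 5 mg/kg bw/day against control, with their standard errors, for Gpd1, Aqp9 and other genes of glycerol and glycerol 3-phosphate metabolism and of glycerol release from triglyceride, males in blue and females in orange. Filled points have an adjusted p under 0.10. Among filled points Mgll is highest in males (2.48) and Pnpla2 in females (1.61), and Tkfc falls in both sexes. Lipe in males is not drawn because all 4 mice at 5 mg/kg had no count.

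Around these 5 genes, 13 of 14 other genes of glycerol and glycerol 3-phosphate metabolism were tested, each on its highest-count probe. By edgeR, 2 rose, 1 fell and 10 were not called in males at 5 mg/kg (12.7% of all probes called). In females, 1 rose, 1 fell and 11 were not called (4.52%). Over all probes DESeq2 called 2832 in males and 1269 in females. Of this list it called 5 in males, with Gdpd1 (edgeR log2 fold change 1.85 ± 0.79, SE, adjusted p = 0.143) and Akr1a1 (0.40 ± 0.17, SE, adjusted p = 0.134) added to those called by edgeR, and 2 in females. Their median log2 fold change was 0.11 in males and 0.21 in females, beside -0.12 and -0.01 over all probes. Glycerol kinase (Gk), which makes glycerol 3-phosphate from glycerol and is named here after its values were seen, had a mean of 131 ± 23.8 CPM over 5 control males and of 141 ± 26.6 CPM (SD) over 4 males at the highest dose. It was not called in males (log2 fold change 0.11 ± 0.21, SE) or in females (0.21 ± 0.21, SE).

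Gpam, the mitochondrial acyltransferase that puts the first acyl chain on glycerol 3-phosphate, rose in both sexes. In males its mean was 115 ± 22.4 CPM in controls and 193 ± 34.1 CPM (SD) after dosing, a log2 fold change of 0.76 (edgeR adjusted p = 0.0411). In females it went from 121 ± 25.7 to 249 ± 97.9 CPM, a log2 fold change of 1.04 (edgeR adjusted p = 0.00490). The Gpam call was lost in males without control replicate 3 (adjusted p = 0.115) or replicate 1 at 5 mg/kg (0.140), and in females without replicate 1 at 5 mg/kg (0.110). Gpat3, an acyltransferase of the endoplasmic reticulum, rose in males by 1.33 ± 0.33 on the log2 scale (SE, adjusted p = 0.00671) and had 0.79 ± 0.33 in females without a call (adjusted p = 0.260, or 0.0594 with each sex fitted apart). Tkfc, which phosphorylates dihydroxyacetone and glyceraldehyde, fell in both sexes. It went from 371 ± 64.9 to 205 ± 26.4 CPM in males (log2 fold change -0.86, adjusted p = 0.00136) and from 415 ± 79.0 to 221 ± 19.8 CPM in females (log2 fold change -0.91, adjusted p = 0.000998). No mouse at 5 mg/kg overlapped its controls for Tkfc or Gpam.

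The list for glycerol release from triglyceride held 9 genes, lipases and cofactors, with the lipase inhibitor G0s2 among them. At 5 mg/kg, edgeR called 4 higher and 1 lower in males (12.7% of all probes called), and 2 higher in females (4.52%). DESeq2 called the same 5 in males and 5 in females, where it added G0s2, Abhd5 (edgeR log2 fold change 0.63 ± 0.23, SE, adjusted p = 0.172) and Lipa (-0.48 ± 0.20, SE, adjusted p = 0.262) to Mgll and Pnpla2. The median log2 fold change was 0.52 in males and 0.79 in females. Mgll, the monoglyceride lipase that frees glycerol in the last step, had a mean of 77.3 ± 21.4 CPM over 5 control males and 432 ± 91.4 CPM (SD) over 4 at 5 mg/kg. It rose by 2.48 ± 0.20 on the log2 scale (SE, edgeR adjusted p = 9.32e-12). In females it rose from 72.1 ± 8.10 to 169 ± 32.1 CPM, by 1.23 ± 0.20 (SE, adjusted p = 3.79e-05). The difference between the sexes, 1.25 ± 0.28 on the log2 scale (SE), was itself called (edgeR adjusted p = 0.0256).

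G0s2, an inhibitor of the first triglyceride lipase, rose in males by 2.42 ± 0.54 on the log2 scale (SE, adjusted p = 0.00228) and had 1.43 ± 0.53 in females (adjusted p = 0.164, or 0.0159 with each sex fitted apart). Pnpla2, which encodes that lipase, rose in females by 1.61 ± 0.35 (SE, adjusted p = 0.00284) and had 0.52 ± 0.35 in males (adjusted p = 0.398). Abhd5, its coactivator, rose in males by 0.79 ± 0.24 (SE, adjusted p = 0.0288), but not without replicate 4 at 5 mg/kg (0.170) or with each sex fitted apart (0.127). Ces1d, a carboxylesterase with close paralogs whose reads could be shared, rose in males by 0.98 ± 0.32 (SE, adjusted p = 0.0501) but not without the 2 shallow libraries (log2 fold change 0.59, adjusted p = 0.288), with each sex fitted apart (0.166), or without control replicate 2 or 5 or replicate 1 or 3 at 5 mg/kg (0.138 to 0.267). The gene that fell in males was Lipe, named outside the rule after its values were seen. It encodes hormone-sensitive lipase and had 28 counts over 5 control males and 0 over 4 males at 5 mg/kg (adjusted p = 0.0786). The call was lost without any 1 of the 4 males at 5 mg/kg or without control replicate 3 (0.126 to 0.142). Summed over its 3 probes it had a log2 fold change of -0.11 (adjusted p = 0.984).

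No other aquaporin was called at 5 mg/kg by edgeR, which called 12.7% of all probes in males and 4.52% in females. With so few genes tested, a count of 0 lies near these shares. Of 9 on the array, 5 were tested (Aqp1, Aqp4, Aqp5, Aqp8 and Aqp11) and edgeR called 0 in either sex, with 1 at an unadjusted p under 0.05 (Aqp8 in females, log2 fold change -1.12 ± 0.44, SE, adjusted p = 0.206). Aqp8 in females was called with no filter (0.0673), with each sex fitted apart (0.0181) and by DESeq2 (0.0839), which called no other. The malate-aspartate shuttle, the other route by which NADH electrons reach mitochondria, had 7 genes tested. Slc25a13, its aspartate carrier, fell in males from 983 ± 142 to 681 ± 102 CPM (log2 fold change -0.53, adjusted p = 0.0238, or 0.114 without the shallow replicate 3 at 5 mg/kg), and Mdh2, mitochondrial malate dehydrogenase, rose in females from 18.2 ± 3.71 to 35.4 ± 2.94 CPM (log2 fold change 0.96, adjusted p = 0.0316). No other gene of that list was called by edgeR in either sex, so 1 of 7 was called in each, beside the same shares of all probes. DESeq2 called 3 in females, adding Got1 and Got2, the cytosolic and mitochondrial aspartate aminotransferases, to Mdh2. Got1 had 40.2 ± 15.9 CPM in control females and 10.9 ± 4.75 CPM (SD) at 5 mg/kg, without overlap (edgeR log2 fold change -1.88 ± 0.65, SE, adjusted p = 0.124), and Got2 had 379 ± 78.8 and 488 ± 33.1 CPM (0.36 ± 0.14, SE, adjusted p = 0.220).

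Targets of the nuclear receptor PPARα were read as a reference for the size of these differences. At 5 mg/kg, 10 of 11 rose in males and 9 did in females by edgeR, with median log2 fold changes of 5.37 and 4.41. Of all probes, 12.7% were called in males and 4.52% in females. Ehhadh, a peroxisomal β-oxidation enzyme, rose by 5.51 ± 0.30 in males and 5.03 ± 0.29 in females (SE), and Plin2, a lipid droplet coat protein, by 2.45 ± 0.27 and 1.76 ± 0.26. The fatty acid hydroxylase Cyp4a10 rose by 6.47 ± 0.61 and 4.38 ± 0.55, and the thioesterase Acot1 by 4.78 ± 0.49 and 4.80 ± 0.49, both from families of close paralogs. The fitted log2 difference of Aqp3 in females lay within 1 SE of that of Ehhadh, and that of Gpd1 was smaller than that of each of these 4.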

How the data were processed

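Liver RNA of 37 mice was measured by TempO-Seq. The authors demultiplexed reads (bcl2fastq 2.17.1.14), aligned them to the probe sequences with Bowtie and deposited raw counts per probe without normalization. Of 40 mice assayed they had removed 3 by read depth and probes detected. Values are whole numbers. Mice were grouped by the sex and dose in the labels, which give no batch and no replicate numbers, and replicates were numbered within groups.

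The model was fitted in R 4.3.3 with edgeR 4.0.16: filterByExpr over the 8 groups (18570 of 30146 probes kept), TMM normalization, 1 quasi-likelihood fit to all 37 mice (29 residual degrees of freedom), and Benjamini-Hochberg adjustment over all probes of a comparison with a threshold of 0.10. Standard errors are the log2 fold change over the square root of F, and 95% intervals use those degrees of freedom. Similarity was Pearson r of log2 CPM (prior count 2), centred by sex. Of a list, the probe with most counts stood for a gene. Lists were described by counts, and up to 5 called genes with the smallest p in either sex were named, except 1 that is not reported here. Genes that DESeq2 alone called were named after their values were seen. The 5 genes and all lists were chosen with earlier results of these data known. Gene positions are from GENCODE M21. The fit was tested on simulated data, with changes set only in males at 5 mg/kg and only in probes above a minimum count. Changes in probes of few counts, such as those of Aqp7 and Gpd2, were not simulated. Alternatives, with DESeq2 1.42.0 among them, are given at the end. The columns held no group means or comparisons. Probe sequences and proteins were not used here. Libraries differ in depth up to 6.60-fold, which limits the probes of few counts most.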

Additional observations from a re-analysis of the deposited data

Results flagged for a closer look

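Within groups of 4 or 5 mice, 14 values of the 6 probes stood apart from the rest of their group by Dixon's criterion, of 40 groups with any spread, where chance gives about 5%. Nearly all were single mice with a count among mice at or near 0, a pattern for which the criterion was not made.

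For Aqp3 probe 30918 this was a male at 0.1 mg/kg with 0.425 CPM. For Aqp3 probe 76050 it was a control male at 0.133 CPM, a male at 0.5 mg/kg at 6.57 CPM (64 counts, the next mouse at 0.161 CPM) and a female at 0.1 mg/kg at 0.366 CPM. For Aqp7 it was a control female at 0.629 CPM, a female at 0.5 mg/kg at 1.07 CPM and a female at 5 mg/kg at 2.19 CPM, with the next at 0.595 CPM. For Aqp9 it was the lowest control male, at 15.1 CPM beside 18.5 CPM for the next. For Gpd2 the mice were a male at 0.1 mg/kg (3.58 CPM), a male at 0.5 mg/kg (2.22 CPM), a control female (0.468 CPM), females at 0.1 and 0.5 mg/kg (1.74 and 0.300 CPM) and a female at 5 mg/kg (1.40 CPM). Gpd1 had no such value in any group.

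Mgll responded differently in the sexes. At 5 mg/kg the male log2 fold change exceeded the female one by 1.25, by a test of the difference itself (edgeR adjusted p = 0.0256), and it was higher than in every control in 4 of 4 males and 4 of 4 females.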

How the results depend on the processing

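Of 57 log2 fold changes recomputed, 53 kept their sign under every alternative that gave a value: DESeq2 size factors, no filter, a mean count of at least 10, a robust fit, each sex fitted apart, probes of a gene summed, DESeq2's Wald test, a threshold of 0.05, each mouse left out, or, chosen after seeing the data, the 2 libraries under 3000000 counts left out. With 1 mouse left out, the genes called among the 5 ranged from 2 to 3 in males at 5 mg/kg against control, from 0 to 1 in males at 0.5 mg/kg, from 1 to 2 in females at 5 mg/kg and from 0 to 1 between controls of the sexes, and kept their count of 0 or 1 in each other comparison. The other 4 were not called and changed sign when 1 mouse was left out: Gpd1 in females at 0.5 mg/kg against control (from -0.13 to 0.28), Nol6 in males at 5 mg/kg (from -0.05 to 0.74), and the differences between the sexes at 5 mg/kg of Gpd1 (from -0.21 to 0.19, and 0 without the shallow libraries) and Aqp9 (from -0.17 to 0.17). The count in males at 0.5 mg/kg was 0 with each sex fitted apart and at a threshold of 0.05. That in females at 5 mg/kg was 1 at 0.05 and without the shallow libraries. That between controls was 1 with DESeq2. In the step from 0.5 to 5 mg/kg in females, DESeq2 gave no adjusted p for Aqp3 and called Gpd1 (0.0923), and it gave none for Aqp3 probe 30918 in females at 5 mg/kg against control. Summing its probes gave Aqp3 an adjusted p of 0.00553 in males at 0.5 mg/kg. Over all probes, males at 5 mg/kg had 1120 calls with each sex apart and 1530 at 0.05 (main 2359), and females 2093 and, with DESeq2, 1269 (main 839). At 0.5 mg/kg males had 53 with each sex apart, 70 at 0.05, 319 with DESeq2 and 59 to 145 with 1 mouse left out (main 116), and females 70 with each sex apart, 76 with DESeq2 and 34 without a filter (main 21). The step from 0.5 to 5 mg/kg gave 556 with each sex apart, 926 at 0.05 and 1119 to 1909 with 1 mouse left out in males (main 1622), and 742 with each sex apart, 501 with DESeq2 and 161 to 303 in females (main 274). The controls gave 813 with DESeq2 (main 483), and the difference between the sexes 250 with DESeq2, 70 at 0.05 and 80 to 217 with 1 mouse left out (main 117). At 0.1 mg/kg, no filter gave 14 calls in males and 1 in females. The causes were not tested. No paired analysis was made, since each mouse got a single dose level and gave 1 library. A planned test of probes failing the filter was not run, as none of the 6 failed. Depth limits Aqp7 and Gpd2, for which 3 counts in a group was taken as the highest level that a total of 0 allows.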
